A study of Arabidopsis thaliana with 4 samples.

Results

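The 48 genes described here are the Arabidopsis thaliana genes of the cell cycle core: cyclins of the A, B and D types, the cyclin-dependent kinases CDKA and CDKB, the kinase inhibitors of the KRP and SIM/SMR families, WEE1, CCS52A, E2F factors and RBR1, PCNA, MCM and the cytokinesis gene KN. They were chosen by locus identifier, and all 48 are among the 33602 genes counted. The data are polyA RNA-seq counts from protoplasts of floral abscission zones, 2 libraries of residuum cells (REC), which stay on the receptacle, and 2 of secession cells (SEC), which leave with the shed organ. Plants of both groups were ebp1 mutants in the Col-0 background and carried a nuclear GFP–GUS reporter driven by the promoter of QRT2, a polygalacturonase gene active in abscission zones, by which the cells were sorted. Growth was at 22°C under days of 16 h light and nights of 8 h, and the labels give no plant age. No wild-type library is compared here, so the values show the 2 sides of the break in the mutant and not what the mutation does. Whether the replicates are from different plants is not stated, so the p-values reflect the spread between these libraries alone, and that spread may be technical.

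Plant cells enter division when D-type cyclins bound to CDKA phosphorylate the retinoblastoma protein RBR1, which frees E2F factors to switch on genes of DNA synthesis. A- and B-type cyclins with CDKB kinases then carry the cell through G2 and mitosis, and a syntaxin encoded by KN fuses vesicles at the new cell plate. In endoreduplication, which is common in floral organs, cells copy their DNA without dividing. It is favoured when mitotic CDK activity is low, through inhibitors of the SIM/SMR family and through CCS52A proteins, which direct mitotic cyclins to the anaphase-promoting complex for destruction.

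Libraries held between 12191718 and 16102115 counts in genes. Levels are given as counts per 1000000 (CPM) of the TMM-scaled library size, group values as mean ± SD (n = 2), and differences as log2 fold changes of REC over SEC (positive where REC is higher), each with a standard error (SE) from edgeR's quasi-likelihood test. Adjusted p-values are from that test, with Benjamini-Hochberg adjustment over all 18384 genes tested. The SEC pair differed within itself far more than the REC pair (chi-square per degree of freedom 70.8 and 5.39). Long transcripts were under-represented in SEC replicate 1: its log2 CPM relative to the mean of the 4 libraries fell by 0.445 for each doubling of transcript length, while the other 3 libraries had slopes from 0.125 to 0.164. As all slopes are taken against that shared mean, they offset each other, and the positive ones are not separate observations. QRT2 was read in every library, at 493 and 568 CPM in REC and 459 and 694 CPM in SEC.

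Of the 48 members, 43 had enough counts to be tested. None passed the adjusted threshold of 0.05 in edgeR's quasi-likelihood test, in either direction, where 0.495% of all genes tested were called higher in REC and 2.18% higher in SEC. At an unadjusted p under 0.05 there were 6 members on the REC side, namely CYCD1;1, CYCD3;1, CYCD3;3, PCNA1, CYCA2;3 and CYCB1;2, against a background of 9.46%. On the SEC side there was 1, SMR1, against a background of 14.1%. DESeq2 called 4 of 47 members higher in REC (CYCD1;1, CYCD3;1, CYCD3;3 and CYCB1;2, background 3.66%) and 0 higher in SEC (background 7.69%). With the length trend of each library removed, edgeR also called 4 members higher in REC (CYCD3;1, CYCD3;3, PCNA1 and CYCB1;2, background 4.86%) and 0 higher in SEC (background 8.72%). Limma voom called 0 in either direction (background 0.495% and 1.75%). Without either REC library edgeR also called 0 members, where 0.146% and 0.397% of all genes were called higher in REC and 0.448% and 1.3% higher in SEC. With 1 SEC library left out, the REC pair alone sets the spread and calls are many. Without SEC replicate 1, 13 of 46 members were then called higher in REC (background 18.7%) and 2 higher in SEC (background 20%), and without SEC replicate 2, 13 of 47 (background 29.4%) and 3 (background 26.1%).

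The members did not all lean one way. Log2 fold changes were above 0 for 30 of the 43 tested members, against 51.5% of all genes, with a median of 0.27 against 0.02 for all genes. Both REC libraries stood above both SEC libraries for 18 members, where 29.8% of all genes did so, and both SEC libraries stood above both REC libraries for 7 members, where 28.2% of all genes did so. The first set includes D-type cyclins, B-type cyclins, CDKB2 genes and KN. Of the second set, 5 of the 7 are CDK inhibitors. CYCB1;2, CYCB1;3, CYCB1;4 and CYCB2;4 had under 10 counts in each SEC library and entered the test through their REC counts, so the totals over tested members are a description only.

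**Figure D1:**
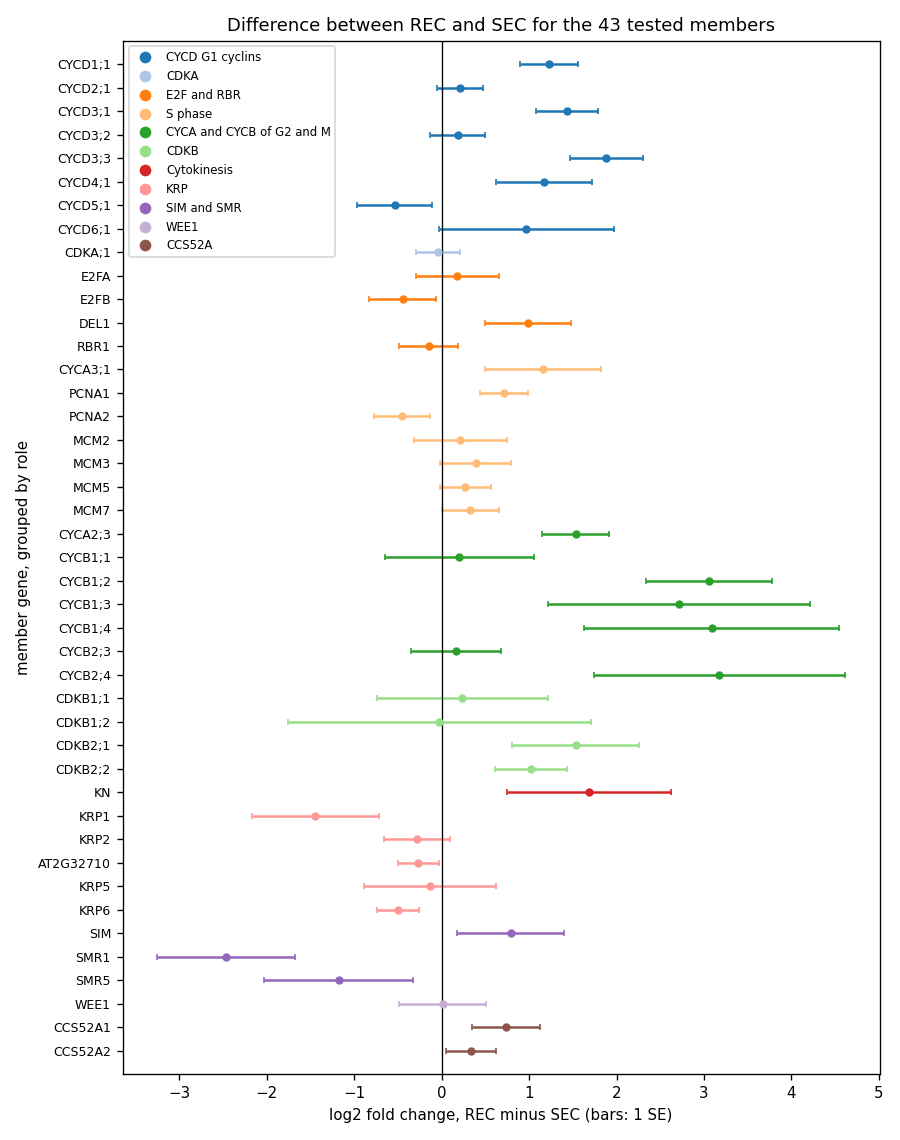
Log2 fold change (REC minus SEC) with 1 SE for each of the 43 tested members, from edgeR, coloured by role, with values right of 0 higher in REC. B-type cyclins reach the highest values (up to 3.18, with wide bars) and SMR1 the lowest (−2.46), while no member passed the adjusted threshold.

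Among the 8 D-type cyclin genes of the members, whose products start the cycle in G1, 7 had positive log2 fold changes and the median was 1.07. Summed over these 8 genes, the level was 127 and 124 CPM in REC and 79.0 and 72.9 CPM in SEC. In this sum the REC libraries nearly coincide, and the SEC libraries lie below them. The sum leaves out CYCD4;2 and CYCD7;1, which are outside the members. CYCD4;2 had 22 and 27 counts in REC and 12 and 10 in SEC. CYCD7;1 had 0 counts in both REC libraries and 32.7 and 0.514 CPM in SEC. Adding CYCD7;1 would bring SEC replicate 1 closer to the REC libraries. CYCD3;3 (AT3G50070), one of the CYCD3 genes that keep cells of lateral organs dividing, had the largest value of the family. It stood at 7.22 and 9.28 CPM in REC and 2.08 and 2.38 CPM in SEC (log2 fold change 1.88, SE 0.42, adjusted p = 0.0797). Its REC and SEC values did not overlap, and its log2 fold change lay between 1.70 and 2.08 whichever library was left out.

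CYCD3;1 (AT4G34160), known for its induction by cytokinin, had 36.3 and 31.9 CPM in REC and 8.96 and 16.2 CPM in SEC (log2 fold change 1.43, SE 0.36, adjusted p = 0.0933). CYCD1;1 (AT1G70210) had 23.8 and 27.0 CPM in REC and 13.4 and 8.28 CPM in SEC (log2 fold change 1.23, SE 0.33, adjusted p = 0.108). Both genes are below their REC levels in each SEC library, although the SEC libraries differ from each other in opposite senses: replicate 1 is the lower for CYCD3;1 and the higher for CYCD1;1. CYCD4;1 (AT5G65420) was lower in level, at 3.30 and 4.604 CPM in REC and 1.70 and 1.797 CPM in SEC (log2 fold change 1.17, SE 0.55).

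The third CYCD3 gene, CYCD3;2 (AT5G67260), did not share this separation. It had the highest level of the family per kb of transcript, with 26.8 and 26.2 CPM in REC and 28.9 and 17.7 CPM in SEC, which overlap (log2 fold change 0.18, SE 0.32, adjusted p = 0.774). Its log2 fold change was −0.12 without SEC replicate 2. CYCD2;1 (AT2G22490) also overlapped between groups, with levels from 17.4 to 24.1 CPM. CYCD5;1 (AT4G37630) was the one D-type cyclin gene of the members with a negative value, at 3.69 and 3.74 CPM in REC and 6.10 and 4.69 CPM in SEC (log2 fold change −0.54, SE 0.43, adjusted p = 0.51). CYCD6;1 (AT4G03270), known from asymmetric divisions of the root, was near the limit of detection in SEC replicate 1, with 4 counts. A gene on the opposite strand overlaps CYCD6;1 over 847 nt in the TAIR10.1 annotation, and the library kit does not mark strand, so its reads are uncertain.

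CDKA;1 (AT3G48750), the kinase that D-type cyclins activate, had the highest level of all members per kb of transcript, a mean of 35.8 CPM per kb. Its level was 53.9 and 51.7 CPM in REC and 63.2 and 45.6 CPM in SEC (log2 fold change −0.04, SE 0.25, adjusted p = 0.939). The SEC values lie on either side of the REC values, and the sign of this difference turned in several alternatives.

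**Figure D2:**
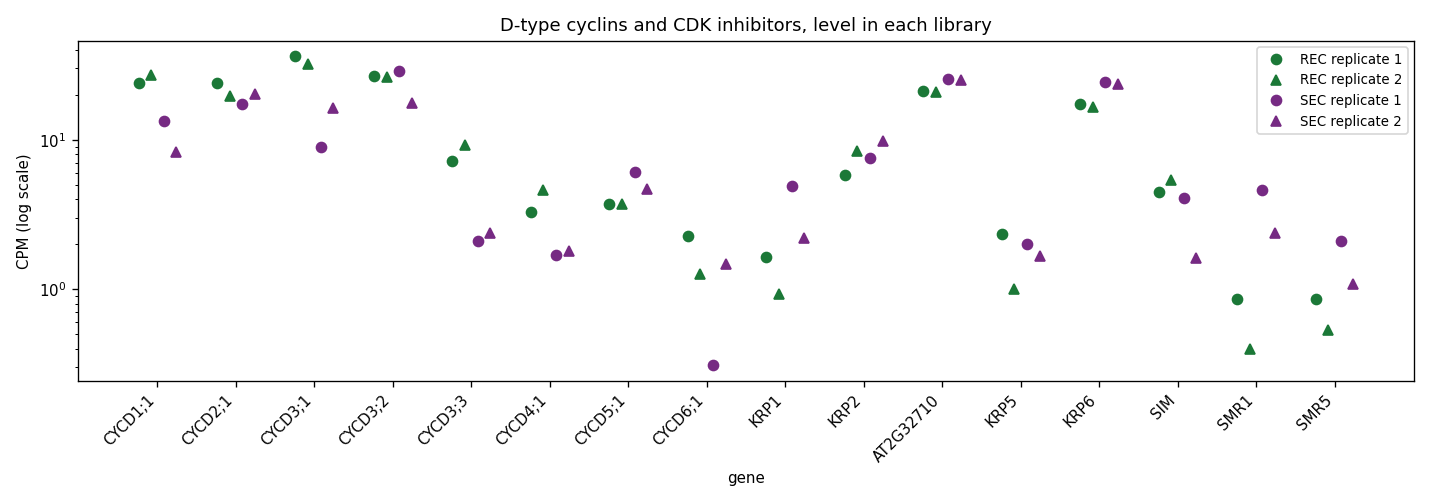
Level in CPM (log scale) of each tested D-type cyclin and CDK inhibitor gene of the members in each library, REC in green and SEC in purple, with circles for replicate 1 and triangles for replicate 2. CYCD1;1, CYCD3;1, CYCD3;3, CYCD4;1 and SIM have both green points above both purple points, and CYCD5;1, KRP1, KRP6, AT2G32710, SMR1 and SMR5 have both below.

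RBR1 (AT3G12280), the retinoblastoma protein gene that holds E2F factors in check, was among the more abundant members. It had 45.5 and 57.5 CPM in REC and 41.6 and 72.5 CPM in SEC (log2 fold change −0.15, SE 0.33, adjusted p = 0.83). The SEC libraries enclose the REC libraries, and the sign of the difference depended on which was used, at 0.32 with replicate 1 alone and −0.49 with replicate 2 alone. E2FB (AT5G22220), an activating E2F factor gene, likewise overlapped between groups, at 22.5 and 19.0 CPM in REC and 19.1 and 37.3 CPM in SEC (log2 fold change −0.45, SE 0.38, adjusted p = 0.537), and was 0.13 without SEC replicate 2. E2FA (AT2G36010), the other activating factor gene, ranged from 3.47 to 6.01 CPM over the 4 libraries with overlapping groups.

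DEL1 (AT3G48160), an atypical E2F factor gene whose product delays the onset of endoreduplication, was at 4.48 and 4.604 CPM in REC and 2.01 and 2.57 CPM in SEC. Its groups did not overlap (log2 fold change 0.98, SE 0.49, adjusted p = 0.304). The ALDH10A9 gene overlaps DEL1 on the opposite strand over 307 nt and had more counts, 881 and 1313 in REC and 924 and 1119 in SEC, which do not show the same order of groups.

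The 7 genes of S phase had a median log2 fold change of 0.33, and the SEC libraries differed widely in them. PCNA1 (AT1G07370), for the sliding clamp of DNA polymerase, had 28.3 and 27.8 CPM in REC and 19.8 and 14.4 CPM in SEC (log2 fold change 0.72, SE 0.27, adjusted p = 0.197). PCNA2 (AT2G29570), for the same clamp, had 8.79 and 7.34 CPM in REC and 11.7 and 10.3 CPM in SEC (log2 fold change −0.45, SE 0.32, adjusted p = 0.451). Neither gene overlapped between groups, and they lie in opposite directions. The genes are paralogs, and reads aligned to more than one place were not counted, so the split between them is uncertain. ENOC overlaps PCNA2 on the opposite strand over 279 nt and had fewer counts in both SEC libraries, with 645 and 690 counts in REC and 497 and 437 in SEC.

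MCM2, MCM3, MCM5 and MCM7 encode subunits of the replicative helicase, which is loaded on DNA before S phase. Their summed level was 126 CPM in both REC libraries, and 69.9 and 136 CPM in SEC replicates 1 and 2. MCM2 (AT1G44900) showed the widest gap, with 34.2 and 33.3 CPM in REC and 14.2 and 44.0 CPM in SEC (log2 fold change 0.21, SE 0.53, adjusted p = 0.851). All 4 MCM genes overlapped between groups, with log2 fold changes from 0.21 to 0.39. Without SEC replicate 2 these ran from 0.62 to 1.26, and without SEC replicate 1 from −0.38 to 0.10. Their transcripts are long, from 2604 to 3158 nt, and the library short of long transcripts is SEC replicate 1. With the length trend removed the 4 values ran from 0.13 to 0.26.

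CYCA3;1 (AT5G43080), an A-type cyclin gene of S phase, had 3.93 and 5.21 CPM in REC and 3.01 and 1.09 CPM in SEC (log2 fold change 1.16, SE 0.67, adjusted p = 0.362). Its groups did not overlap, and here SEC replicate 1 was the higher of its pair.

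**Figure D3:**
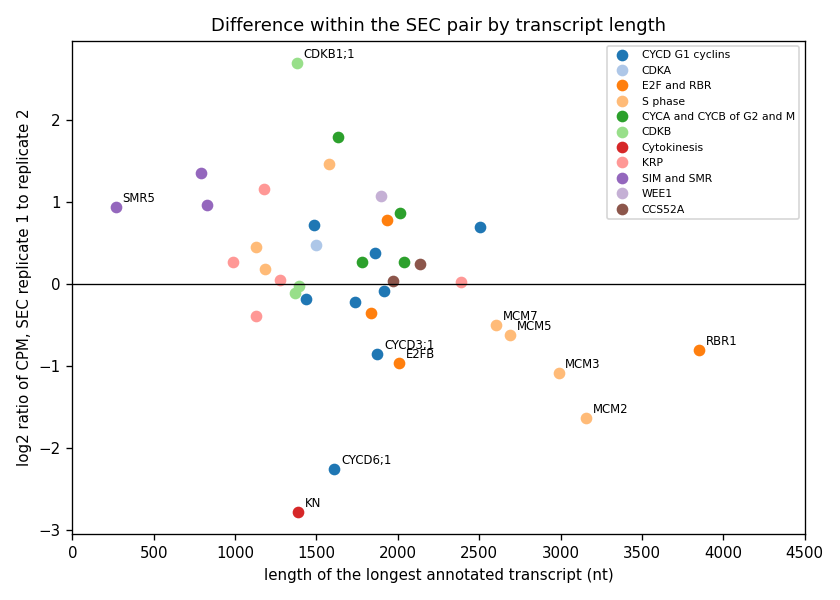
Log2 ratio of CPM in SEC replicate 1 to SEC replicate 2 against the length of the longest annotated transcript (nt), for the 39 tested members with a count in both libraries. The MCM genes and RBR1 at the right lie below 0, and of the other 34 members 23 lie above 0 and 11 below, among them KN at −2.78, CYCD6;1 at −2.26 and E2FB at −0.97 (Spearman rho −0.396 across genes, which are not independent replicates).

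Genes of G2 and mitosis were low in every library. The 11 A- and B-type cyclin genes of this phase summed to 454 and 399 counts (35.7 and 26.6 CPM) in REC and 189 and 127 counts (14.6 and 8.15 CPM) in SEC, so that both SEC sums lie below both REC sums. All 7 that could be tested had positive log2 fold changes, from 0.17 to 3.18, with a median of 2.72. Leaving out SEC replicate 1 gave these 7 a median of 3.18, and leaving out SEC replicate 2 gave 1.70, and 4 of them entered the test through their REC counts. In bulk samples, fewer cells of a type and less RNA per cell cannot be told apart.

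CYCB1;2 (AT5G06150), a mitotic cyclin gene, had 7.62 and 3.07 CPM in REC and 0.695 and 0.578 CPM in SEC (log2 fold change 3.05, SE 0.72, adjusted p = 0.0853). The SEC values rest on 9 counts in each library. CYCB2;4 (AT1G76310) had the largest log2 fold change of the tested members with all 4 libraries, with 32 and 25 counts in REC and 6 and 0 in SEC (log2 fold change 3.18, SE 1.44, adjusted p = 0.261). It moved from 2.16 without SEC replicate 2 to 7.92 without SEC replicate 1. Without SEC replicate 2 or REC replicate 2, CYCB1;2 had the larger value (2.93 and 3.58, against 2.16 and 3.43 for CYCB2;4). CYCB1;3 (AT3G11520) and CYCB1;4 (AT2G26760) resembled it, with 26 and 15 counts and 21 and 15 counts in REC against 6 and 0 and 4 and 0 in SEC. SEC replicate 2 had no count for any of these last 3 genes. A count of 0 allows up to 3 counts, which are 0.186 CPM of its gene counts.

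Of the 4 cyclin genes of G2 and M too low to test, CYCA1;1 and CYCB2;2 had both REC libraries above both SEC libraries, and CYCB2;1 and CYCA2;4 overlapped between groups. CYCA1;1 (AT1G44110), active in M phase, had 9 counts in each REC library and 0 in each SEC library. Its REC counts as read were 6.17-fold above a limit of 3 counts over the SEC pair, scaled for library size. This ratio takes the REC counts as exact, so the true difference may be smaller. CYCB2;2 (AT4G35620) had 21 and 1 counts in REC and 0 in SEC. CYCB2;1 (AT2G17620) had 5 and 0 counts in REC and 0 in SEC. CYCA2;4 (AT1G80370) had 27 and 6 counts in REC and 4 and 7 in SEC. For CYCB2;2, CYCB2;1 and CYCA2;4 it was REC replicate 1 that held most of the reads. Over the 8 B-type cyclin genes REC replicate 1 had 300 counts and REC replicate 2 had 185, and the SEC libraries had 130 and 65.

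Other mitotic cyclin genes did not follow. CYCB1;1 (AT4G37490), which marks cells at G2 and M and also responds to DNA damage, had 3.38 and 1.54 CPM in REC and 3.32 and 0.963 CPM in SEC (log2 fold change 0.20, SE 0.85, adjusted p = 0.915). CYCB2;3 (AT1G20610) had 4.32 and 4.004 CPM in REC and 4.79 and 2.63 CPM in SEC (log2 fold change 0.17, SE 0.52, adjusted p = 0.88). Both overlap between groups, and both turned negative without SEC replicate 2.

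CYCA2;3 (AT1G15570), whose product restrains endoreduplication together with CDKB1;1, was the most abundant cyclin gene of this phase per kb of transcript. It had 9.27 and 13.3 CPM in REC and 4.25 and 3.53 CPM in SEC (log2 fold change 1.54, SE 0.38, adjusted p = 0.093). The groups did not overlap, and the log2 fold change lay between 1.26 and 1.804 when any one library was left out. Its partner CDKB1;1 (AT3G54180) did not show the same order. CDKB1;1 had 1.88 and 2.60 CPM in REC and 3.32 and 0.514 CPM in SEC (log2 fold change 0.24, SE 0.98, adjusted p = 0.911).

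Of the 4 genes for the plant-specific CDKB kinases, the 2 CDKB2 genes, which act at G2 and M, were separated between groups. CDKB2;2 (AT1G20930) had 6.05 and 8.21 CPM in REC and 3.47 and 3.53 CPM in SEC (log2 fold change 1.02, SE 0.41, adjusted p = 0.216). A gene on the opposite strand, AT1G20925, overlaps CDKB2;2 over 192 nt and had 79 and 134 counts in REC and 52 and 82 in SEC. The kinase gene itself had 77 and 123 counts in REC and 45 and 55 in SEC, with the libraries in the same order. As the kit marks no strand, reads of the shared stretch cannot be told apart, and the separation of this kinase gene is uncertain. CDKB2;1 (AT1G76540) had 2.75 and 1.94 CPM in REC and 0.772 and 0.835 CPM in SEC (log2 fold change 1.53, SE 0.72, adjusted p = 0.278). CDKB1;2 (AT2G38620) had 16 and 6 counts in REC and 22 and 0 in SEC, and its log2 fold change of −0.03 (SE 1.74) carries no direction. Both CDKB1 genes had most of their SEC reads in replicate 1.

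KN (AT1G08560), the cytokinesis syntaxin gene, had 4.004 and 3.94 CPM in REC and 0.309 and 2.12 CPM in SEC (log2 fold change 1.69, SE 0.94, adjusted p = 0.347). The REC libraries agree closely and both SEC libraries lie below them, but far apart, with 4 and 33 counts. With SEC replicate 1 left out its log2 fold change was 0.90, and with SEC replicate 2 left out it was 3.66. NPQ1, on the opposite strand over 464 nt of KN, had 125 and 152 counts in REC and 163 and 136 in SEC.

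**Figure D4:**
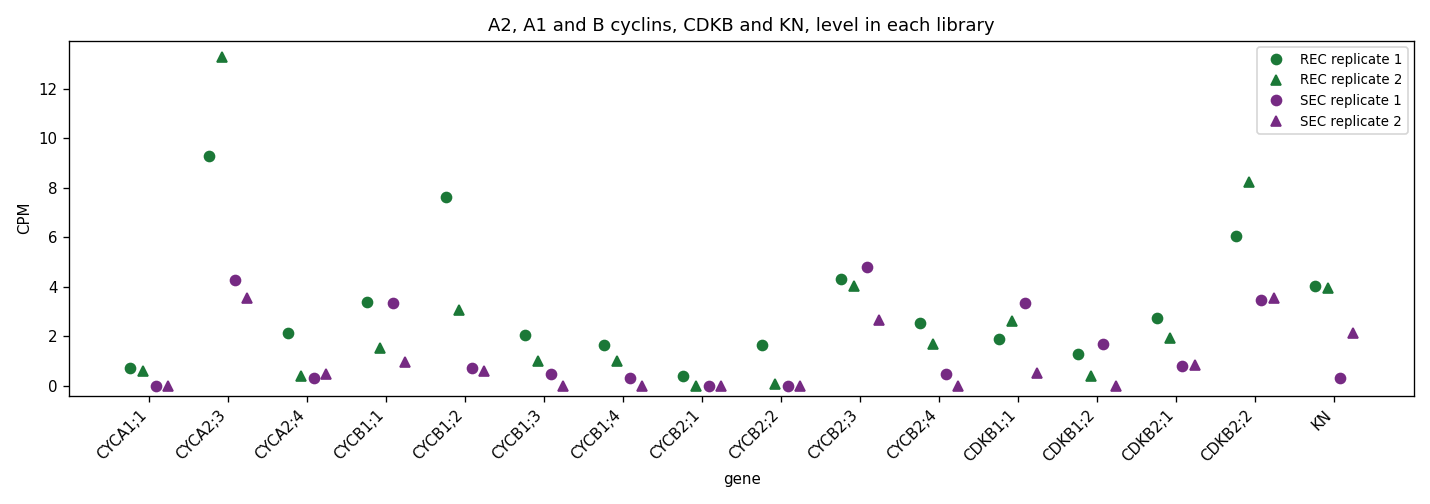
Level in CPM (linear scale) in each library of the A- and B-type cyclin genes of G2 and M, the CDKB genes and KN, REC in green and SEC in purple. CYCB1;2, CYCB1;3, CYCB1;4, CYCB2;4, CYCA2;3, CDKB2;1, CDKB2;2 and KN have both REC points above both SEC points, and CYCB1;1, CYCB2;3 and the CDKB1 genes overlap.

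Markers of meristem cells lay on the same side as these genes. Summed over the 6 genes of the list, they stood at 57.4 and 53.0 CPM in REC and 4.48 and 3.85 CPM in SEC, and their part in the cell cycle results was not tested. STM, a homeobox gene of the shoot meristem, made up most of this sum in each library but SEC replicate 2, at 49.8 and 41.6 CPM in REC and 4.09 and 1.54 CPM in SEC (log2 fold change 4.03, SE 0.51, adjusted p = 0.0355). CLV1, a receptor kinase gene of the meristem, was at 2.12 and 2.94 CPM in REC and at 0 and 1.03 CPM in SEC (log2 fold change 2.25, SE 1.44, adjusted p = 0.408). ANT, an organ growth gene, was at 5.34 and 8.27 CPM in REC and at 0.232 and 1.09 CPM in SEC (log2 fold change 3.32, adjusted p = 0.0907). The stem cell genes WUS and CLV3 had 0 to 3 counts in each library and LFY had 0 in all. Photosynthesis genes, 7 in the list, summed to 6251 and 4941 CPM in REC and 4468 and 3781 CPM in SEC. Stomatal lineage markers, in which cell divisions are frequent, were at 0 in all libraries for 4 of 6 genes and summed to at most 0.449 CPM. The abscission zone markers, 5 genes with QRT2 among them, did not lie on one side. ADPG2, a polygalacturonase gene of cell separation, was at 22.8 and 21.9 CPM in REC and 147 and 171 CPM in SEC (log2 fold change −2.83, SE 0.22, adjusted p = 0.0267). IDA, for the peptide that triggers abscission, was at 0.471 and 0.868 CPM in REC and 32.5 and 13.9 CPM in SEC (log2 fold change −5.08, SE 0.63, adjusted p = 0.0341). Both were called higher in SEC. Of the IDA receptor genes, HAE was at 440 and 460 CPM in REC and 160 and 355 CPM in SEC (log2 fold change 0.80, SE 0.38, adjusted p = 0.283). The groups overlapped for HSL2. Of the remaining marker lists, the 3 phloem genes summed to 9.27 and 9.34 CPM in REC and 3.32 and 0.642 CPM in SEC, nearly all of it SUC2. The 6 xylem genes summed to 6.83 and 3.94 CPM in REC and 49.3 and 83.8 CPM in SEC. Most of this was MC9 in each library but REC replicate 2. MC9 was called higher in SEC by edgeR (log2 fold change −4.34, SE 0.54, adjusted p = 0.0341). Of the 3 xylem genes tested, 1 was positive, IRX3, with 13 and 17 counts in REC and 0 and 15 in SEC. The 4 guard cell genes ranged from 2.93 to 6.74 CPM in sum, with groups that overlap. Among them KAT1, a potassium channel gene, had 10 and 40 counts in REC and 0 in each SEC library. It was not called by edgeR (adjusted p = 0.101), while DESeq2 called 1 gene of this list, higher in REC. The 7 pollen and tapetum genes ranged from 0.467 to 2.89 CPM in sum, with groups that overlap.

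The CDK inhibitor genes of the members leaned toward SEC, though edgeR called none of them with all libraries. Of the 8 that could be tested, 7 had negative log2 fold changes, with SIM as the exception, where 51.5% of all genes had values above 0. Of the 7, KRP2 and KRP5 overlapped between groups. KRP proteins bind and inhibit CDK–cyclin complexes, and the 6 KRP genes of the members together had 48.6 and 48.2 CPM in REC and 65.5 and 62.7 CPM in SEC. The 2 libraries of each group nearly coincide in this sum, and the SEC sums lie above.

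KRP6 (AT3G19150) was the most abundant of them per kb of transcript, with 17.3 and 16.5 CPM in REC and 24.2 and 23.4 CPM in SEC (log2 fold change −0.50, SE 0.24, adjusted p = 0.292). AT2G32710, annotated as a CDK inhibitor family gene and listed with the KRP genes, had 21.2 and 20.8 CPM in REC and 25.5 and 25.1 CPM in SEC (log2 fold change −0.27, SE 0.23, adjusted p = 0.546). These are small differences with little spread in either pair, and neither gene overlapped between groups. AT2G32710 overlaps CB5-B on the opposite strand over 926 nt, and CB5-B had 262 and 317 counts in REC and 352 and 371 in SEC while the counts of AT2G32710 were 270 and 312 in REC and 330 and 391 in SEC. As the kit marks no strand, the reads of this pair cannot be told apart.

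KRP1 (AT2G23430) had the lowest log2 fold change of its family, with 1.65 and 0.934 CPM in REC and 4.86 and 2.18 CPM in SEC (log2 fold change −1.44, SE 0.72, adjusted p = 0.305). KRP5 (AT3G24810) had the highest log2 fold change of the family, with 2.36 and 1.00 CPM in REC and 2.01 and 1.67 CPM in SEC (log2 fold change −0.13, SE 0.75, adjusted p = 0.935). KRP5 overlapped between groups, as did KRP2 (AT3G50630), at 5.81 to 9.82 CPM (log2 fold change −0.28). KRP3 (AT5G48820) was too low to test, with 4 and 9 counts in REC and 19 and 7 in SEC.

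The 3 SIM and SMR genes of the members, for small inhibitors that shift cells from mitosis to endoreduplication, split. They are not the whole family. AT5G02420, listed with the SMR genes outside the members, had higher levels, at 38.1 and 38.0 CPM in REC and 54.0 and 35.5 CPM in SEC, which overlap. SMR1 (AT3G10525, also LGO), needed for the giant cells of the sepal epidermis, had 11 and 6 counts in REC and 60 and 37 in SEC, or 0.864 and 0.400 CPM against 4.63 and 2.37 CPM. The log2 fold change of SMR1, the lowest of all members, was −2.46 (SE 0.79, adjusted p = 0.144) and lay between −3.06 and −1.91 when any one library was left out. SIM (AT5G04470), first known from trichomes, lay the other way, at 4.48 and 5.34 CPM in REC and 4.09 and 1.61 CPM in SEC (log2 fold change 0.79, SE 0.61, adjusted p = 0.492). In the TAIR10.1 annotation a gene on the opposite strand overlaps SMR1 over 375 nt (AT3G10527) and another overlaps SIM over 338 nt (AT5G04475), and neither is among the genes counted here. SMR5 (AT1G07500), which responds to oxidative stress and DNA damage, had 11 and 8 counts in REC and 27 and 17 in SEC (log2 fold change −1.18, SE 0.85, adjusted p = 0.465). SMR5 lies wholly within FTSH10, a gene of the other strand with 535 and 546 counts in REC and 301 and 715 in SEC, so the few reads of SMR5 are uncertain.

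CCS52A1 (AT4G22910) and CCS52A2 (AT4G11920), activators of the anaphase-promoting complex in the endocycle, lay above their SEC levels in both REC libraries. CCS52A1 had 6.99 and 6.54 CPM in REC and 4.40 and 3.72 CPM in SEC (log2 fold change 0.74, SE 0.39, adjusted p = 0.329). CCS52A2 was more abundant, with 12.8 and 14.8 CPM in REC and 11.0 and 10.8 CPM in SEC (log2 fold change 0.34, SE 0.28, adjusted p = 0.528). The SIM, SMR and CCS52A genes of the members are therefore not on one side. SMR1 and SMR5 were higher in level in SEC, and the CCS52A genes and SIM in REC. DEL1 and CYCA2;3, whose products hold endoreduplication back, were also higher in level in REC. With all libraries edgeR called none of these genes. WEE1 (AT1G02970), a checkpoint kinase gene that acts on CDKs, had 5.10 and 5.67 CPM in REC and 7.26 and 3.47 CPM in SEC, with a log2 fold change of 0.01 (SE 0.50, adjusted p = 0.993).

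**Figure D5:**
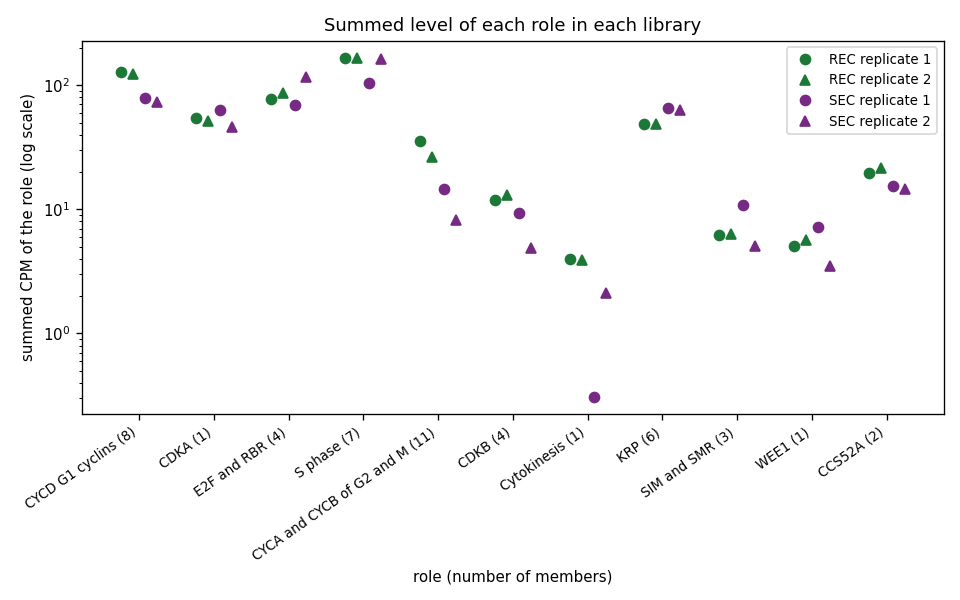
Summed CPM of the members of each role (log scale) in each library, REC in green and SEC in purple, with the number of members in brackets. The D-type cyclins, the A- and B-type cyclins of G2 and M, CDKB, KN and CCS52A have both REC sums above both SEC sums, as has S phase by a narrow margin in SEC replicate 2, while KRP has both below, and CDKA, E2F and RBR, SIM and SMR, and WEE1 have groups that overlap.

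The wider cell cycle machinery, 80 genes in 7 lists, gave the same absence of calls. Of the 73 that could be tested, 0 passed in edgeR's quasi-likelihood test, with 5 on the REC side (background 9.46%) and 4 on the SEC side (background 14.1%) at an unadjusted p under 0.05. DESeq2 called 1 in each direction (background 3.66% for REC and 7.69% for SEC). With the length trend removed, edgeR called 2 higher in REC (background 4.86%) and 1 higher in SEC (background 8.72%). Their median log2 fold change was 0.19, and 40 of the 73 were positive.

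Among 13 genes of replication licensing and DNA synthesis, TSO2 (AT3G27060), for a small subunit of ribonucleotide reductase, had the smallest p, with 28.9 and 32.9 CPM in REC and 13.3 and 14.5 CPM in SEC (log2 fold change 1.15, SE 0.25, adjusted p = 0.0755). The list had 7 positive and 6 negative values. The list of mitosis and cytokinesis had 10 of 13 genes tested, 6 positive and 4 negative. AUR2 (AT2G25880), an Aurora kinase gene, had its smallest p, with 3.46 and 0.934 CPM in REC and 0.618 and 0.706 CPM in SEC (adjusted p = 0.344), and most of its reads were in REC replicate 1.

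In the list of the anaphase-promoting complex, 6 of 11 genes had positive values. APC11 (AT3G05870), its RING subunit gene, had 7.22 and 7.01 CPM in REC and 32.2 and 16.5 CPM in SEC (log2 fold change −1.77, SE 0.41, adjusted p = 0.0823). It was the one gene of the wider lists that DESeq2 called higher in SEC. Of 6 further genes of endoreduplication and ploidy, 3 were positive, led by ILP1 (AT5G08550), a regulator of polyploidy level, at 18.1 and 27.4 CPM in REC and 10.04 and 9.57 CPM in SEC (log2 fold change 1.22, SE 0.32, adjusted p = 0.101). For the E2F, DP and MYB3R regulators, 3 of 9 were positive, and MYB3R5 (AT5G02320), a repressor of G2 and M genes, had 6.67 and 5.67 CPM in REC and 12.0 and 10.1 CPM in SEC (log2 fold change −0.85, SE 0.33, adjusted p = 0.208).

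The remaining cyclins, CDKs and inhibitors, 18 tested of 22, divided into 9 positive and 9 negative. The smallest p was that of AT5G40460, annotated as a CDK inhibitor gene like SMR3, with 2.20 and 2.00 CPM in REC and 7.41 and 4.49 CPM in SEC (log2 fold change −1.498, SE 0.51, adjusted p = 0.159). All 6 genes of the DNA damage response were positive, with a median of 0.75, and 3 of them overlapped between groups. PARP1 (AT2G31320), a poly(ADP-ribose) polymerase gene, led them with 13.4 and 11.9 CPM in REC and 2.93 and 6.55 CPM in SEC (log2 fold change 1.41, SE 0.47, adjusted p = 0.156). The median of this list fell to 0.31 when SEC replicate 1, the library short of long transcripts, was dropped. It rose to 1.36 when the other SEC library was dropped instead. The overlapping genes were SOG1, PARP2 and GMI1. GMI1, with a transcript of 5050 nt, had 7.77 and 6.54 CPM in REC and 1.16 and 7.25 CPM in SEC.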

How the data were processed

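Each library has 1 deposited file of whole-number read counts by gene, which are not normalized. Per the labels' protocols, RNA was amplified with a low-input template-switching kit (18 cycles) and libraries were made with TruSeq v2, which does not mark strand. Reads carry no molecular identifiers, so limits for 0 counts cover counting error only. Per the submitters' processing notes, TAIR10 was the build and the tools included DESeq2, HTSeq 0.6.1, Picard 1.119, TopHat2 2.0.9, Trimmomatic 0.32.3, FastQC 0.11.2 and bcl2fastq 1.8.4. How strand was set in counting is not given in the sources used here. Genotype labels name a different QRT promoter in each sample, and QRT2 was taken from the series description.

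The 5 closing lines of each file name no gene and were left out. Those for records in no gene held 46.8% to 47.7% of records. Groups came from sample titles. The test was edgeR 4.0.16 under R 4.3.3 (TMM, filterByExpr with a count minimum of 10, group as the only term, 2 residual degrees of freedom, two-sided). DESeq2 1.42.0 and limma 3.58.1 (voom) were alternatives. The testing step was checked on simulated data, with the spread of each gene capped at the median and no length trend. That check does not cover a pair as uneven as SEC. RefSeq (TAIR10.1) supplied names, transcript lengths and overlaps, and 47 of the 48 members carry their usual name there. Because this is not the build named for the files, coordinates and sequences were left out.

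The members and lists were chosen with earlier results of these data known. Members given with full statistics are, in each role, those with the highest level per kb, the largest and the smallest log2 fold change, and from each other list the gene with the smallest p. CYCD1;1, CYCD3;1, CYCD4;1, CYCB1;2, MCM2, CYCB1;1, CDKB1;1, AT2G32710, SMR5, RNR2A and CDT1A were added after their values were seen.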

Additional observations from a re-analysis of the deposited data

How the results depend on the processing

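Over all genes there were 91 calls higher in REC and 400 higher in SEC. DESeq2 gave 716 and 1503, the length trend removed 894 and 1604, and no filter beyond 1 count 280 and 836, and upper-quartile factors gave 254 higher in SEC. With 1 library left out the counts ran from 28 to 5630 and from 86 to 4991, because 1 pair alone then sets the spread. Members called higher in REC, 0 by edgeR with TMM factors and all libraries, were 4 by DESeq2 and 4 without the length trend, and 0 to 13 with 1 library left out, and members called higher in SEC were 0 to 3. Same-numbered libraries share only a number (correlation of deviations 0.0384). The fit with the replicate block gave 526 and 1161 calls over all genes, with 1 member, CYCD3;1, higher in REC (2.86% of all genes were).

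Of the 43 tested members, 29 kept the sign of their log2 fold change in every alternative run, 21 of them positive. With all libraries, CDKA;1 turned to 0.048 with upper-quartile factors, 0.0021 without the filter and 0.033 without the length trend. CDKB1;2 turned to 0.053, 0.041 and 0.13 in the same fits, to 1.82 by voom and to 1.115 with the block. KRP5 turned to 0.052 and WEE1 to −0.038 without the length trend. The cause was not tested. With 1 library left out, the range was −0.25 to 0.21 for CDKA;1, −1.04 to 6.58 for CDKB1;2, −0.84 to 0.37 for KRP5, −0.42 to 0.64 for WEE1, −0.12 to 0.58 for CYCD3;2, −0.14 to 0.62 for E2FA, −0.85 to 0.13 for E2FB, −0.49 to 0.32 for RBR1, −0.38 to 1.26 for MCM2, −0.054 to 1.04 for MCM3, −0.011 to 0.63 for MCM5, −0.43 to 1.33 for CYCB1;1, −0.19 to 0.66 for CYCB2;3 and −0.55 to 2.11 for CDKB1;1. Of the members that kept their sign, 5 moved by over 1 on the log2 scale when a SEC library was left out: KN (0.90 to 3.66), CYCB2;4 (2.16 to 7.92), CYCB1;3 (1.70 to 7.46), CYCB1;4 (2.07 to 7.26) and CYCD6;1 (0.25 to 2.49). Depth limits CYCB1;2, CYCB1;3, CYCB1;4 and CYCB2;4, which had fewer than 10 counts in each SEC library.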

Other observations

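CYCD7;1 (AT5G02110), a D-type cyclin gene outside the 48 and known from guard mother cells of leaves, was chosen after its values were seen. It had 0 counts in both REC libraries and 424 and 8 counts in SEC replicates 1 and 2, and the filter on low counts kept it out of the test. Of the regulators of that cell type, FAMA had 0 counts in all 4 libraries, and MUTE had 3 counts in SEC replicate 2 and 0 in the other libraries.

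RNR2A and CDT1A were also chosen after their values were seen. RNR2A (AT3G23580), for a small subunit of ribonucleotide reductase like TSO2, lay in the opposite direction to TSO2. It had 15.5 and 18.4 CPM in REC and 33.9 and 27.0 CPM in SEC (edgeR log2 fold change −0.84, SE 0.27, adjusted p = 0.14). CDT1A (AT2G31270), a replication licensing gene, had 13.7 and 19.5 CPM in REC and 5.17 and 7.57 CPM in SEC (edgeR log2 fold change 1.38, SE 0.37, adjusted p = 0.105). HIK, a kinesin gene of cytokinesis, had 19 and 1 counts in REC and 0 in SEC, with most reads in REC replicate 1, as for CYCB2;2.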
